A study of Mus musculus with 6 samples.

Results

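The 8 genes described here encode proteins that restrain signalling by the TGF-beta family: the corepressors Ski, Skil, Tgif1 and Tgif2, the membrane adaptor Pmepa1, the secreted inhibitor Fstl3 and the ubiquitin ligases Smurf1 and Smurf2. They were taken by symbol from a table of 54838 genes, and all 8 were among the 13629 genes with enough counts to be tested. They were selected on their function with the counts of the 3 control and 3 fenofibrate libraries, and the differences between them, already known. Those differences are therefore given as a description and not as tests, and a count of members that moved supports nothing further.

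The RNA came from B16F10 cells, a mouse melanoma line, in 3 control libraries and 3 libraries from cells given fenofibrate at 50 µM. Fenofibrate is a fibrate drug whose acid form activates the nuclear receptor PPARα. The submitters describe the samples of each group as biological triplicates. The time of exposure, the solvent given to controls and any genetic change are not given in the sources used here. The cell line entry counts upward from B16F10 to B16F15 over the 6 samples, and groups were taken from the titles only. If those entries were literal, line and treatment could not be told apart.

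The libraries held 13540038 to 14710856 counts, and 3 counts in one library, the limit that a count of 0 allows, equal 0.204 to 0.222 CPM (counts scaled to library size). The 7 markers of the melanocyte lineage, such as Mitf, Pmel and Dct, were counted in both groups and summed to 21209 to 22592 CPM in control and 26034 to 27577 CPM with fenofibrate. The 6 fibroblast markers summed to 14.9 to 17.8 CPM in control and 7.73 to 9.38 CPM with fenofibrate, and none was at 0 in all libraries. Most of these sums was Pdgfrb, with 578 counts over the control libraries and 320 over the fenofibrate libraries. Col1a1 had 33 and 30 counts, and Pdgfra, Dcn, Lum and Col3a1 had at most 37 each in either group. Of the 6 leukocyte markers, Cd3e, Itgam and Adgre1 had no counts in any library. Ptprc was counted 0 times in every control library and 6, 10 and 8 times with fenofibrate, Lyz2 0, 1 and 3 times and 3, 5 and 7 times, and Cd79a 0, 3 and 6 times and 3, 5 and 1 times. The leukocyte markers together reached at most 0.662 CPM in control and 1.39 CPM with fenofibrate. Of the 4 endothelial markers 3 were at 0, as were 3 of the 4 keratinocyte markers, and their sums stayed at or below 0.662 CPM in every library. The part of these marker levels in the results was not tested. In RNA from whole cultures, a change in the share of cells that make a transcript and a change in the amount per cell cannot be told apart.

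Ligands of the TGF-beta family bind paired receptor kinases that phosphorylate SMAD proteins, which enter the nucleus with SMAD4 and bind DNA. SKI and its relative SNON, the product of Skil, hold SMAD complexes in a repressed state by bringing in the nuclear receptor corepressors and histone deacetylases, and SNON is itself made in response to TGF-beta. TGIF1 and TGIF2 are homeodomain proteins that recruit the same kind of machinery, PMEPA1 keeps receptor-activated SMADs from the receptors, FSTL3 binds activins and myostatin outside the cell, and SMURF1 and SMURF2 mark SMADs and receptors for destruction. In melanoma cells SKI and SNON have been studied as proteins that blunt the growth arrest caused by TGF-beta.

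With fenofibrate, 6 of the 8 genes were higher: Skil, Pmepa1, Fstl3, Tgif1, Ski and Smurf1. In all 6 every fenofibrate library lay above every control library. Tgif2 and Smurf2 were lower on average and did not pass the test. In edgeR's quasi-likelihood test at an adjusted p of 0.05, 6 of the 8 were called higher and 0 lower, where 39.1% of all genes tested were called in either direction. Of all genes tested, 19.5% were called higher and 19.5% lower. That even split, 2664 higher and 2662 lower, depended on the scaling: library totals gave 2180 higher and 3280 lower, and limma on log2(FPKM + 0.5) gave 2012 and 3025. Group values did not overlap for 7 of the 8, with fenofibrate higher in 6 and lower in 1. Over all genes tested they did not overlap for 53.3%, with fenofibrate higher in 26.4% and lower in 26.9%. The median log2 fold change was 0.66 over the 8 genes and 0.00 over all genes tested, and since the 8 were chosen with this contrast known, nothing is read from that gap.

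**Figure D1:**
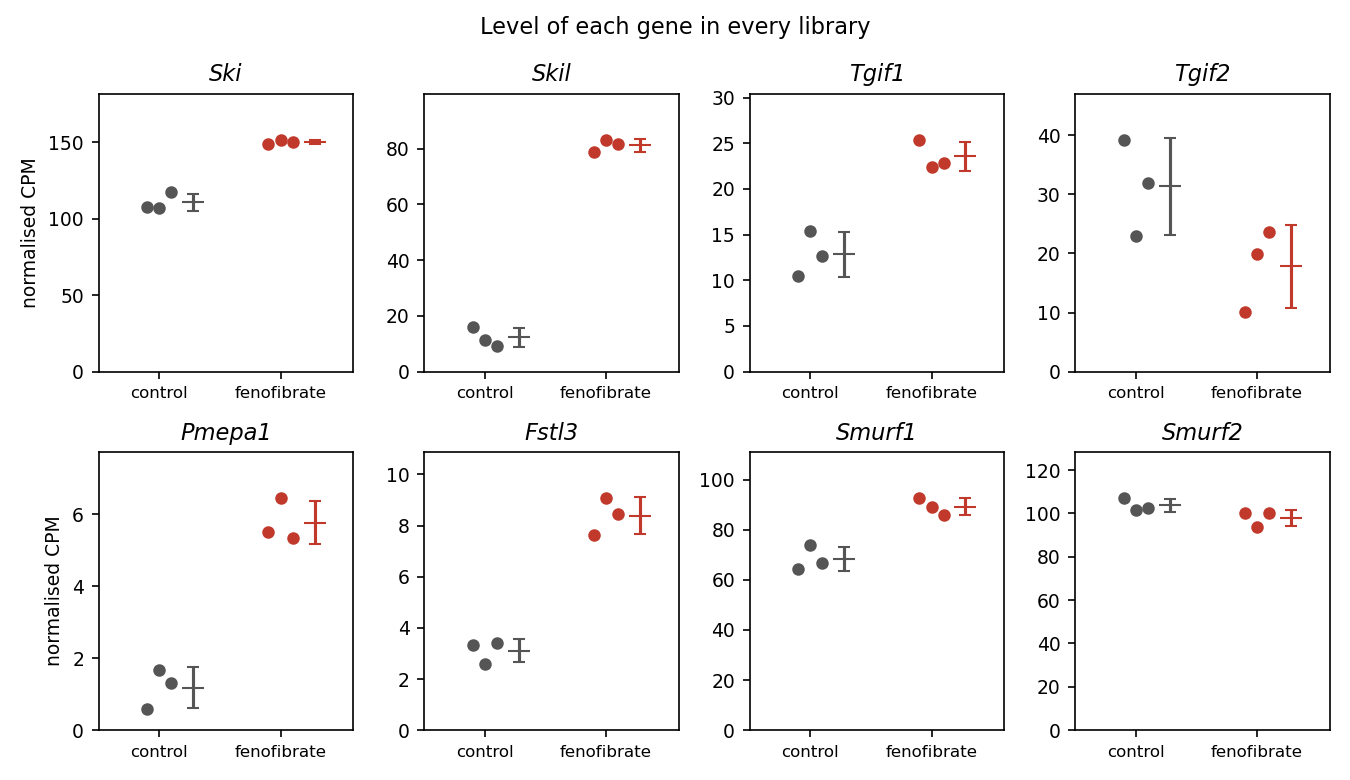
Level of each gene in normalised CPM (counts scaled to the TMM-adjusted library total, linear axis from 0) in the 3 control libraries (grey) and the 3 fenofibrate libraries (red). Points are single libraries, and the bar beside them is the mean ± SD. Skil goes from 9.28 to 16.1 in control to 78.7 to 83.1 with fenofibrate, and Tgif2 is the only gene whose groups overlap.

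Skil, which encodes SNON, showed the largest difference of the 8. Its counts were 224, 163 and 128 in control and 1043, 1174 and 1177 with fenofibrate. The lowest fenofibrate library thus held more than any control library by a wide margin, and the fenofibrate libraries lay close together. Its level went from 12.3 ± 3.51 to 81.2 ± 2.25 normalised CPM (mean ± SD of 3 libraries each), or 6.62-fold (log2 fold change 2.73 ± 0.17 SE, 95% interval 2.32 to 3.13). Of all genes tested, 99.6% had a lower log2 fold change than Skil. The spread between control libraries was wider than counting alone gives: the coefficient of variation was 28.7%, against 7.63% from counting, and 3.62% of the 3234 genes within 2-fold of its control level varied more. The gene, ENSMUSG00000027660, lies on chromosome 3 from 31095058 to 31122577 on the plus strand (GRCm38) and overlaps no other annotated gene.

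Ski, the founding member of the family and the cellular form of a retroviral oncogene, moved in the same direction by far less. Its counts were 1498, 1537 and 1616 in control and 1972, 2139 and 2159 with fenofibrate. The groups did not overlap, and the fenofibrate libraries differed among themselves by less than counting error alone would give, with a coefficient of variation of 0.876% against 2.19%. The level went from 110.8 ± 5.59 to 150.1 ± 1.32 normalised CPM (mean ± SD of 3 libraries each), or 1.36-fold (log2 fold change 0.44 ± 0.05 SE, 95% interval 0.33 to 0.55). The gene, ENSMUSG00000029050, lies on chromosome 4 from 155154075 to 155222592 on the minus strand and overlaps no annotated gene.

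Levels of the pair were compared per length. Ski was the more abundant transcript in every library, at 17.6 ± 0.829 FPKM in control and 23.0 ± 0.256 FPKM with fenofibrate (mean ± SD of 3 libraries each). Skil stood at 0.600 ± 0.174 FPKM in control and 3.82 ± 0.114 FPKM with fenofibrate. The ratio of Ski to Skil was 21.8, 30.7 and 41.1 in the control libraries and 6.16, 5.94 and 5.98 in the fenofibrate libraries. Skil supplied 3.30% ± 1.02 of the summed FPKM of the pair in control and 14.2% ± 0.240 with fenofibrate. The sum itself went from 18.2 ± 0.724 to 26.8 ± 0.366 FPKM. The deposited FPKM divide by a gene length 2.15 times the merged exon length of Skil and 1.15 times that of Ski. On merged exon lengths the ratio was 16.7 ± 5.18 in control and 3.22 ± 0.0639 with fenofibrate, so the length used sets the size of the ratio and both lengths put the fenofibrate ratio lower.

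The other DACH-domain relatives were few or rare. Skor1 and Skor2, which encode corepressors of the same family, had 5 and 0 counts over all 6 libraries. Dach2 was counted 41 times in all, and none of these 3 passed the filter. Dach1, the 1 relative tested, had a log2 fold change of 0.29 ± 0.16 SE (adjusted p = 0.191) and was not called.

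**Figure D2:**
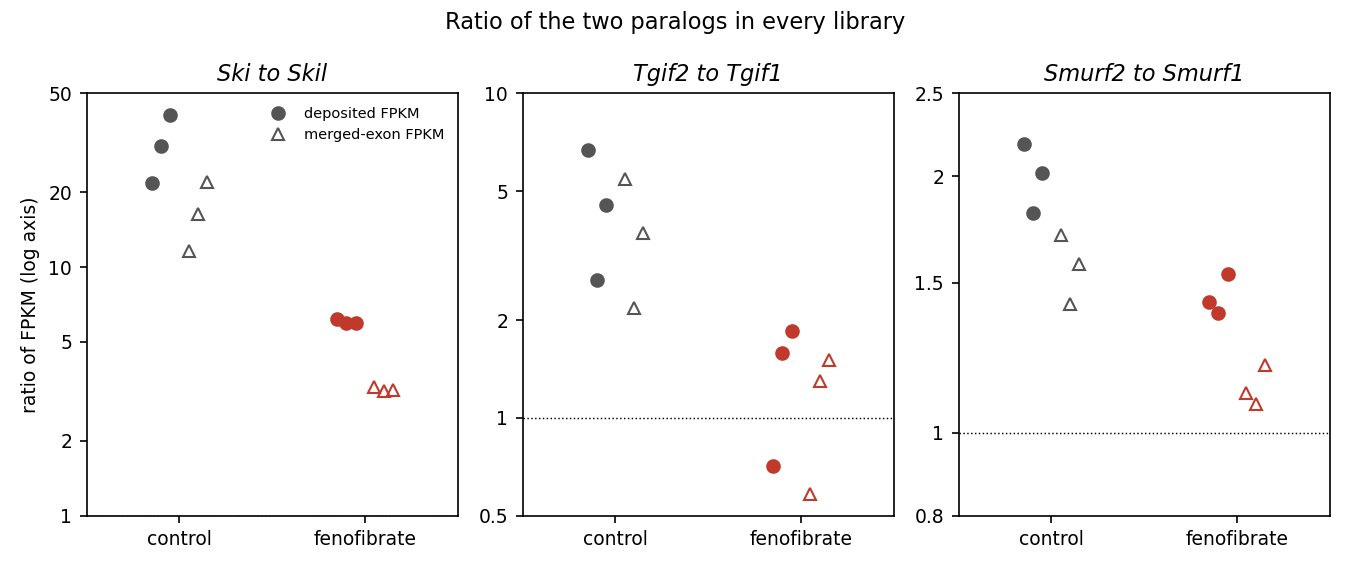
Ratio of FPKM between paralogs in every library, on a log axis, for Ski to Skil, Tgif2 to Tgif1 and Smurf2 to Smurf1. Filled circles use the deposited FPKM and open triangles FPKM recomputed on merged exon lengths. In all 3 pairs each fenofibrate ratio lies below each control ratio on the same scale.

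The TGIF pair moved in opposite directions on average. Tgif1, which encodes a homeodomain repressor that competes with coactivators for SMAD binding, was counted 146, 221 and 174 times in control and 336, 317 and 329 times with fenofibrate. All fenofibrate libraries lay above all controls. The level went from 12.9 ± 2.45 to 23.6 ± 1.58 normalised CPM (mean ± SD of 3 libraries each), or 1.83-fold (log2 fold change 0.87 ± 0.14 SE, 95% interval 0.55 to 1.20). The gene, ENSMUSG00000047407, lies on chromosome 17 from 70844205 to 70853546 on the minus strand and overlaps no annotated gene.

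Tgif2, its close relative, was counted 544, 328 and 440 times in control and 133, 280 and 339 times with fenofibrate. The groups overlapped, since fenofibrate replicate 3 lay above control replicate 2. The level was 31.3 ± 8.18 normalised CPM in control and 17.8 ± 6.97 with fenofibrate (mean ± SD of 3 libraries each), a log2 fold change of -0.81 ± 0.31 SE. Its 95% interval ran from -1.53 to -0.10, and the difference missed the threshold after adjustment over all genes. Tgif2 varied far more between libraries than counting alone gives: its coefficient of variation was 39.2% within fenofibrate and 26.1% within control, against 6.32% and 4.78% from counting. Of the 3933 genes within 2-fold of its fenofibrate level, 2.01% varied more between the fenofibrate libraries. Leaving out fenofibrate replicate 3 gave a log2 fold change of -1.06, which was called, and leaving out fenofibrate replicate 1 gave -0.53, which was not.

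The position of Tgif2 limits its reading. The gene, ENSMUSG00000062175, lies on chromosome 2 from 156840007 to 156855570 on the plus strand. The noncoding transcript 5430405H02Rik on the opposite strand covers 56.7% of its exon bases. No strand setting is stated for the counts, so that reads of Tgif2 and of this transcript cannot be told apart. 5430405H02Rik was itself counted 40, 22 and 44 times in control and 33, 32 and 50 times with fenofibrate. Its counts were below those of Tgif2 in every library. How reads over the shared bases were assigned is not known, and the part of this transcript in the Tgif2 counts was not tested.

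Per length, Tgif2 led Tgif1 in all control libraries, with ratios of 6.68, 2.66 and 4.54. With fenofibrate the ratios were 0.710, 1.58 and 1.85, so that Tgif1 was ahead in 1 of the 3. The summed FPKM of the pair was 4.73 to 6.78 in control and 3.49 to 5.24 with fenofibrate, and these ranges overlap. On merged exon lengths the ratio was 3.79 ± 1.65 in control and 1.13 ± 0.488 with fenofibrate (mean ± SD of 3 libraries each).

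Among the wider TALE homeodomain genes to which the TGIFs belong, 11 of 16 were tested, and 1 rose, 2 fell and 8 were not called (median log2 fold change 0.03, against 0.00 over all genes tested). The shares over all genes tested were 19.5% called higher and 19.5% called lower. Irx5 rose 1.86-fold (8.29 ± 0.523 to 15.5 ± 1.23 normalised CPM, mean ± SD of 3 libraries each, adjusted p = 0.000582). Pbx2, a cofactor of HOX proteins, fell by 0.64 in log2 units (adjusted p = 0.00199), and Irx3 fell by 0.50 (adjusted p = 0.0377). The call of Irx3 was lost in 9 of 15 alternative settings.

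Pmepa1, whose product sits in endosomal membranes and binds receptor-activated SMADs, was the rarest of the 8. It was counted 8, 24 and 18 times in control and 73, 91 and 77 times with fenofibrate. Every fenofibrate library lay well above the highest control, though the control values rest on few counts and the gene passed the low-count filter only through the fenofibrate libraries. Its level went from 1.19 ± 0.558 to 5.77 ± 0.592 normalised CPM (mean ± SD of 3 libraries each), or 4.82-fold (log2 fold change 2.27 ± 0.31 SE, 95% interval 1.56 to 2.98). Leaving out 1 library at a time moved the log2 fold change between 1.94 and 2.60, the lower value without control replicate 1. The gene, ENSMUSG00000038400, lies on chromosome 2 from 173224458 to 173276533 on the minus strand and overlaps no annotated gene. Its paralog Ldlrad4, which acts on SMADs in the same way, summed to 5 counts in control and 0 with fenofibrate and did not pass the filter.

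Fstl3, a secreted glycoprotein that traps activin A, activin B and myostatin, was counted 46, 37 and 47 times in control and 101, 128 and 122 times with fenofibrate. The groups did not overlap, and within each group the libraries differed by about the counting error. The level went from 3.10 ± 0.454 to 8.39 ± 0.724 normalised CPM (mean ± SD of 3 libraries each), or 2.70-fold (log2 fold change 1.43 ± 0.16 SE, 95% interval 1.07 to 1.80). The gene, ENSMUSG00000020325, lies on chromosome 10 from 79777272 to 79782630 on the plus strand. The gene Prss57 on the opposite strand is annotated over 47.3% of its exon bases. In the deposited table Prss57 was counted 0 times in all 6 libraries.

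FSTL3 binds activins and related ligands, and of 12 genes for such ligands, inhibin or activin receptors, 7 were tested. Of these 2 rose, 4 fell and 1 was not called (median log2 fold change -0.29), beside 19.5% of all genes tested called higher and 19.5% lower. Inhba, which encodes the subunit of activin A, summed to 2 counts in control and 41 with fenofibrate, a ratio of 19.8 with a 95% exact interval from 5.16 to 169.4 for counting error only. It was called higher (adjusted p = 0.00136), and it passed the filter only through the fenofibrate libraries. Acvr2b, a type II activin receptor gene, fell by 1.73 in log2 units (5.30 ± 0.410 to 1.59 ± 0.754 normalised CPM, mean ± SD of 3 libraries each, adjusted p = 0.00306). The other type II receptor gene, Acvr2a, rose 1.27-fold (adjusted p = 0.00329). Inha, whose product turns activin subunits into inhibins, fell by 1.18 (adjusted p = 0.0135), the type I receptor gene Acvr1b by 0.47 (adjusted p = 0.0300) and the ligand gene Gdf11 by 0.29 (adjusted p = 0.0488). The calls of Acvr1b, Gdf11 and Inha were lost in 6, 8 and 2 of 15 alternative settings. The remaining ligand genes Inhbb, Inhbc, Inhbe and Mstn had no counts in any library.

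Within the follistatin and SPARC relatives, 5 of 12 genes were tested, and 2 rose, 0 fell and 3 were not called (median 0.04). Calls over all genes tested were 19.5% higher and 19.5% lower. Fst, the best known activin trap, had 0 counts in control and 3 with fenofibrate, against 130 and 351 counts of Fstl3. Sparc, a matrix glycoprotein gene with a follistatin-like domain, rose 1.55-fold (1144 ± 76.7 to 1777 ± 79.7 normalised CPM, mean ± SD of 3 libraries each, adjusted p = 0.000168), and Sparcl1 rose 1.32-fold (adjusted p = 0.000827).

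Smurf1, a HECT-domain ubiquitin ligase that acts on BMP-pathway SMADs, receptors and RHOA, was counted 894, 1057 and 921 times in control and 1225, 1258 and 1234 times with fenofibrate. The fenofibrate libraries all lay above the controls. Its level went from 68.3 ± 4.83 to 89.1 ± 3.40 normalised CPM (mean ± SD of 3 libraries each), or 1.30-fold (log2 fold change 0.38 ± 0.07 SE, 95% interval 0.23 to 0.54). The gene, ENSMUSG00000038780, lies on chromosome 5 from 144876495 to 144965847 on the minus strand and shares no exon base with another annotated gene.

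Smurf2, the ligase that also degrades SNON, was counted 1484, 1455 and 1415 times in control and 1326, 1324 and 1441 times with fenofibrate. On normalised CPM the fenofibrate libraries, at 93.8 to 100.1, lay just below the controls, at 101.5 to 106.9. The mean went from 103.7 ± 2.87 to 98.0 ± 3.65 (mean ± SD of 3 libraries each), and the log2 fold change of -0.08 ± 0.05 SE had a 95% interval from -0.20 to 0.03. A level below 0.873 or above 1.02 of control lies outside that interval. The gene, ENSMUSG00000018363, lies on chromosome 11 from 106820066 to 106920715 on the minus strand, and an annotated microRNA, Gm27322, covers 0.941% of its exon bases.

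The ratio of Smurf2 to Smurf1 was 2.18, 1.81 and 2.02 in the control libraries and 1.42, 1.38 and 1.53 in the fenofibrate libraries. Smurf1 thus supplied 33.4% ± 2.10 of the summed FPKM of the pair in control and 40.9% ± 1.30 with fenofibrate (mean ± SD of 3 libraries each). The sum stayed near its control value, at 19.8 ± 0.319 and 20.3 ± 0.505 FPKM, and the 2 ranges overlapped. On merged exon lengths the ratio was 1.57 ± 0.146 and 1.13 ± 0.0615, close to equal levels with fenofibrate.

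**Figure D3:**
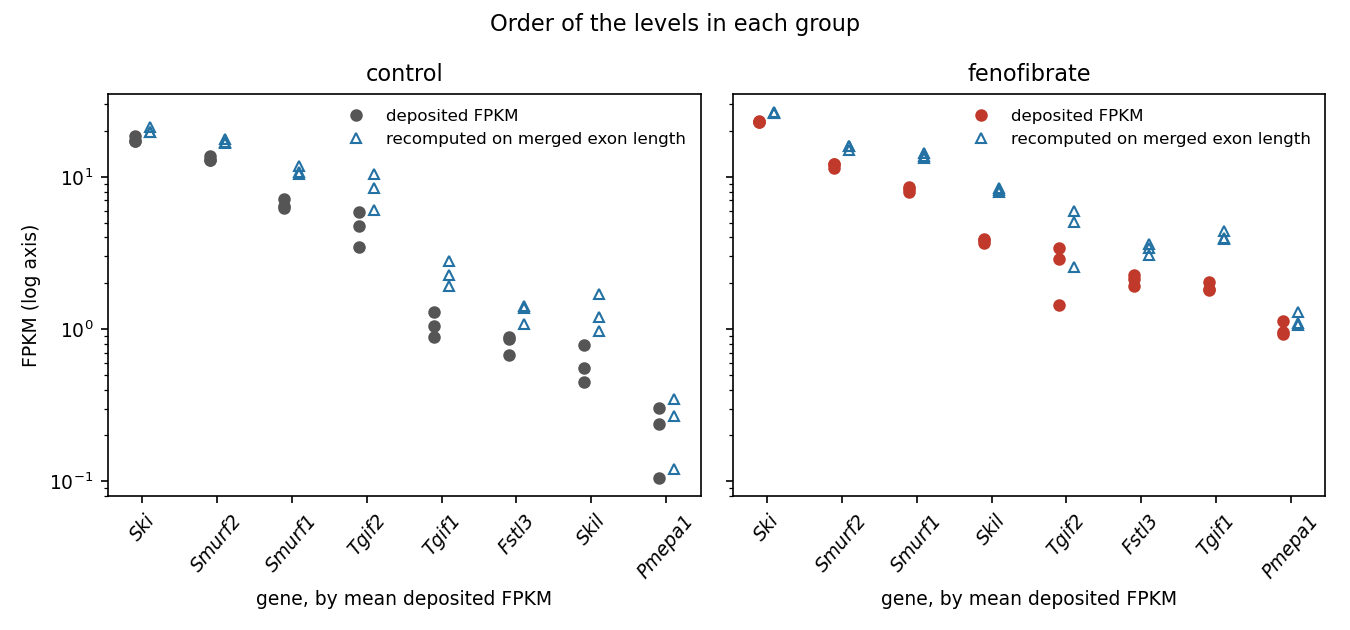
FPKM of the 8 genes in each library, on a log axis, with genes ordered by their mean deposited FPKM in control (left) and in fenofibrate (right). Filled circles are deposited FPKM and open triangles FPKM recomputed on merged exon lengths. Skil moves from the seventh place, at 0.600 FPKM, to the fourth, at 3.82 FPKM.

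Skil moved the most places in the order of the 8 levels. In control the mean deposited FPKM ran from Ski (17.6) through Smurf2 (13.2), Smurf1 (6.61), Tgif2 (4.70), Tgif1 (1.08), Fstl3 (0.807) and Skil (0.600) to Pmepa1 (0.215). In that order Tgif1 overlapped Fstl3 and Fstl3 overlapped Skil, while the other neighbours were apart in all 3 libraries. With fenofibrate the order was Ski (23.0), Smurf2 (12.0), Smurf1 (8.30), Skil (3.82), Tgif2 (2.57), Fstl3 (2.10), Tgif1 (1.90) and Pmepa1 (1.01). There Tgif2 overlapped Fstl3, and Fstl3 overlapped Tgif1. On merged exon lengths Fstl3 (1.29) and Skil (1.29) were level in control, and Tgif1 (4.10) stood above Fstl3 (3.36) with fenofibrate.

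**Figure D4:**
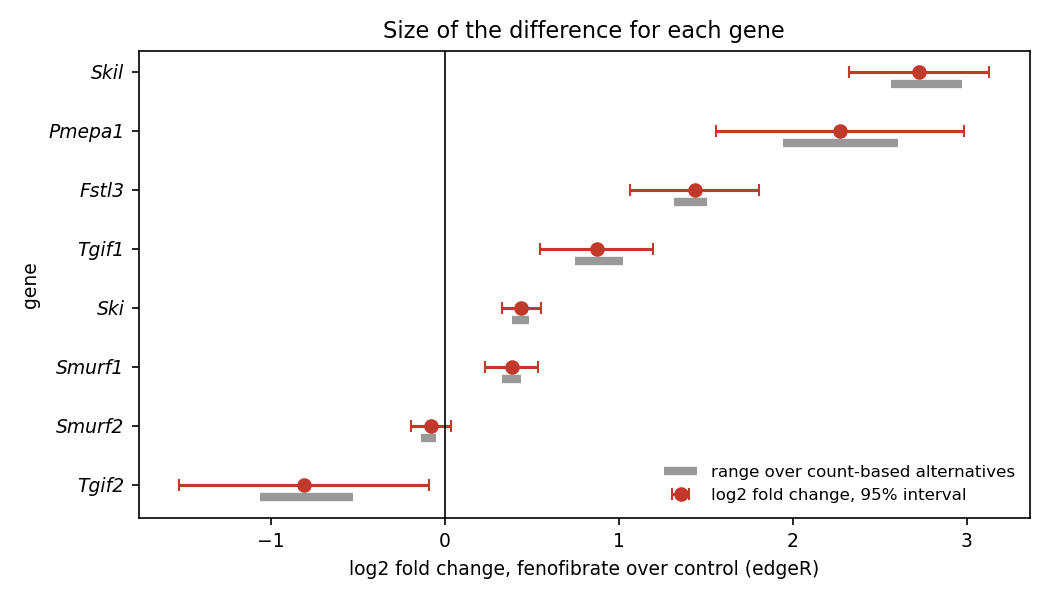
Log2 fold change of each gene, fenofibrate over control, from edgeR (points) with its 95% interval (bars). Grey bars give the range over the alternatives fitted to counts. The range stays on one side of 0 for every gene, and the interval of Smurf2 alone reaches across 0.

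The start regions of the genes are shown for the SMAD box CAGACA, a short element that SMAD proteins can bind, since 5 of the 10 annotated starts held it. Those 5 starts belong to 4 genes, so they are not independent. RefSeq start regions (GRCm38.p6) were found for 6 of the 8 genes, namely Ski, Smurf1, Smurf2, Fstl3, Tgif2 and Tgif1, the last with several starts. Each runs from 250 bases before the start to 50 after it, and both strands were searched. The following stretches run 5′ to 3′ on the strand of the gene from 250 to 51 bases before the start, with CAGACA or its reverse complement TGTCTG in capitals. They are chr10:79777024-79777223 (plus strand) for Fstl3, chr17:70853583-70853782 (minus strand) for Tgif1 and chr5:144965881-144966080 (minus strand) for Smurf1. The last is chr2:156839757-156839956 (plus strand) for Tgif2, which has no match. Ski, also without a match, and Smurf2, whose match lies after the start, are not shown. Annotated exons cover 136 of the 200 bases shown for Tgif2 (Gm14230) and 16 of those shown for Tgif1 (Gm9320).
Fstl3: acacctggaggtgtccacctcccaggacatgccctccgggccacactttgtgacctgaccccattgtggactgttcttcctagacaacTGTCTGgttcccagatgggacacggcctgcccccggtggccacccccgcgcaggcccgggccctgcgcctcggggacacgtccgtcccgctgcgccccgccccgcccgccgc
Tgif1: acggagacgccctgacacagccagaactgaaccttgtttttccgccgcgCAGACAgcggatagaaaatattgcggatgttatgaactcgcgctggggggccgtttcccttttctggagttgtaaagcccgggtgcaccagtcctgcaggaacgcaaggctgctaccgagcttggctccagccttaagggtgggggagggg
Smurf1: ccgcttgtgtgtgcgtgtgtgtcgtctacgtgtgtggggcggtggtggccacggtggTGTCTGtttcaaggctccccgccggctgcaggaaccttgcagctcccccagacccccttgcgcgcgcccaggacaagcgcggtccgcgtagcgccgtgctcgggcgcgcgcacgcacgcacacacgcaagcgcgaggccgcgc
Tgif2: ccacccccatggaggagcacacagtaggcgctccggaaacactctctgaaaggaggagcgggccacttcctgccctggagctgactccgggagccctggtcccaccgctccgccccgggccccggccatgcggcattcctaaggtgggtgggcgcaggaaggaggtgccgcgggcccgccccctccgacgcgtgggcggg

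Counted from the start, the box lay at -162 in Fstl3, -193 in Smurf1 and 28 in Smurf2. Tgif1 held it at -201 from its outermost start and at -60 from another. Ski, which was called higher, and Tgif2, which was not called, had no match. Smurf2, which held the box, was not called. CAGACA occurred in 21.0% of all 32851 start regions of this length, so matches by themselves are common. The palindrome GTCTAGAC and the AP-1 motif TGANTCA were in none of the 10 (0.213% and 7.81% of all). The GC-rich element GGCGCC was in 2 of 10, in Ski and Smurf2 (11.9% of all), and the TEAD motif CATTCC was in 1, in Tgif2 (14.7% of all). The TGIF motif TGTCA was in 4 of 10, all starts of Tgif1 itself (45.4% of all). It can overlap CAGACA where TGTCA ends and CAGACA begins with the same bases. These matches are of letters only and say nothing of binding in these cells.

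SKI, SNON and the TGIFs act by recruiting other corepressors. Among 19 corepressor partner genes, each of them tested, 10 fell, 2 rose and 7 were not called. They had a median log2 fold change of -0.18. Over all genes tested, 19.5% were called lower and 19.5% higher. This list and the other related lists were chosen with results of these libraries known, so their counts are descriptions and are not independent evidence of a direction. Sin3a, the scaffold of a histone deacetylase complex, fell by 0.76 in log2 units (94.9 ± 4.56 to 56.2 ± 6.77 normalised CPM, mean ± SD of 3 libraries each, adjusted p = 0.000592). Ctbp2, a corepressor bound by TGIF1, fell by 0.45 (adjusted p = 0.000927), the deacetylase gene Hdac4 by 0.42 (adjusted p = 0.00285) and Tbl1xr1, a subunit of the nuclear receptor corepressor complex, by 0.39 (adjusted p = 0.0380). Ncor1, the partner of SKI in that complex and chosen here after its value was seen, fell by 0.33 (272 ± 10.7 to 217 ± 2.20 normalised CPM, adjusted p = 0.00073). Sap30, another SIN3 complex subunit, rose 1.83-fold (11.4 ± 1.05 to 20.8 ± 0.984 normalised CPM, adjusted p = 0.000469), and Sin3b rose 1.15-fold (adjusted p = 0.0445). The call of Sin3b was lost in 14 of 15 alternative settings and that of Tbl1xr1 in 10.

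Of 14 genes for enzymes that turn over SKI, SNON, SMADs and receptors, 12 were tested, and 1 rose, 3 fell and 8 were not called (median -0.05). Beside them, 19.5% of all genes tested were called higher and 19.5% lower. Rnf111, the ligase Arkadia that degrades SKI and SNON when TGF-beta signals, had a log2 fold change of 0.15 ± 0.05 SE (66.9 ± 1.93 to 74.1 ± 1.25 normalised CPM, adjusted p = 0.0501) and missed the threshold. Fzr1, the activator of the anaphase-promoting complex that targets SNON, fell by 0.46 (adjusted p = 0.00268). The deubiquitinase genes Uchl5 and Usp15 fell by 0.37 and 0.25 (adjusted p = 0.00286 and 0.00508). Stub1, a ligase that targets SMADs, rose 1.16-fold (adjusted p = 0.0173), a call lost in 5 of 15 alternative settings.

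The other NEDD4-type ligases, relatives of the SMURFs, and their adaptors were tested in 8 of 9 cases, and 5 rose, 0 fell and 3 were not called (median 0.31). For comparison, 19.5% of all genes tested were called higher and 19.5% lower. Nedd4, the founding member, rose 1.40-fold (1081 ± 95.6 to 1517 ± 38.7 normalised CPM, mean ± SD of 3 libraries each, adjusted p = 0.000796). Nedd4l, which acts on SMADs of the TGF-beta branch, rose 1.44-fold (adjusted p = 0.000343). The adaptor genes Ndfip1 and Ndfip2 rose 1.22-fold and 1.26-fold (adjusted p = 0.00382 and 0.0103), with the call of Ndfip2 lost in 4 of 15 alternative settings. Hecw2 rose from 10 to 112 summed counts (adjusted p = 0.00054), and it passed the filter only through the fenofibrate libraries. Itch had a log2 fold change of -0.08 ± 0.06 SE (adjusted p = 0.288) and Wwp1 of -0.15 ± 0.05 SE (adjusted p = 0.0651). Wwp1 was called lower in 7 of 15 alternative settings.

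Of 10 genes for SMURF substrates, all tested, 1 rose, 2 fell and 7 were not called (median -0.11). Again, 19.5% of all genes tested were called higher and 19.5% lower. Traf4, an adaptor protein gene, fell by 1.39 in log2 units (127 ± 5.68 to 48.4 ± 4.65 normalised CPM, mean ± SD of 3 libraries each, adjusted p = 2.53e-05). Ezh2, the methyltransferase of the Polycomb complex, fell by 0.21 (adjusted p = 0.00585), and the kinase gene Map3k2 rose 1.26-fold (adjusted p = 0.00375).

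**Figure D5:**
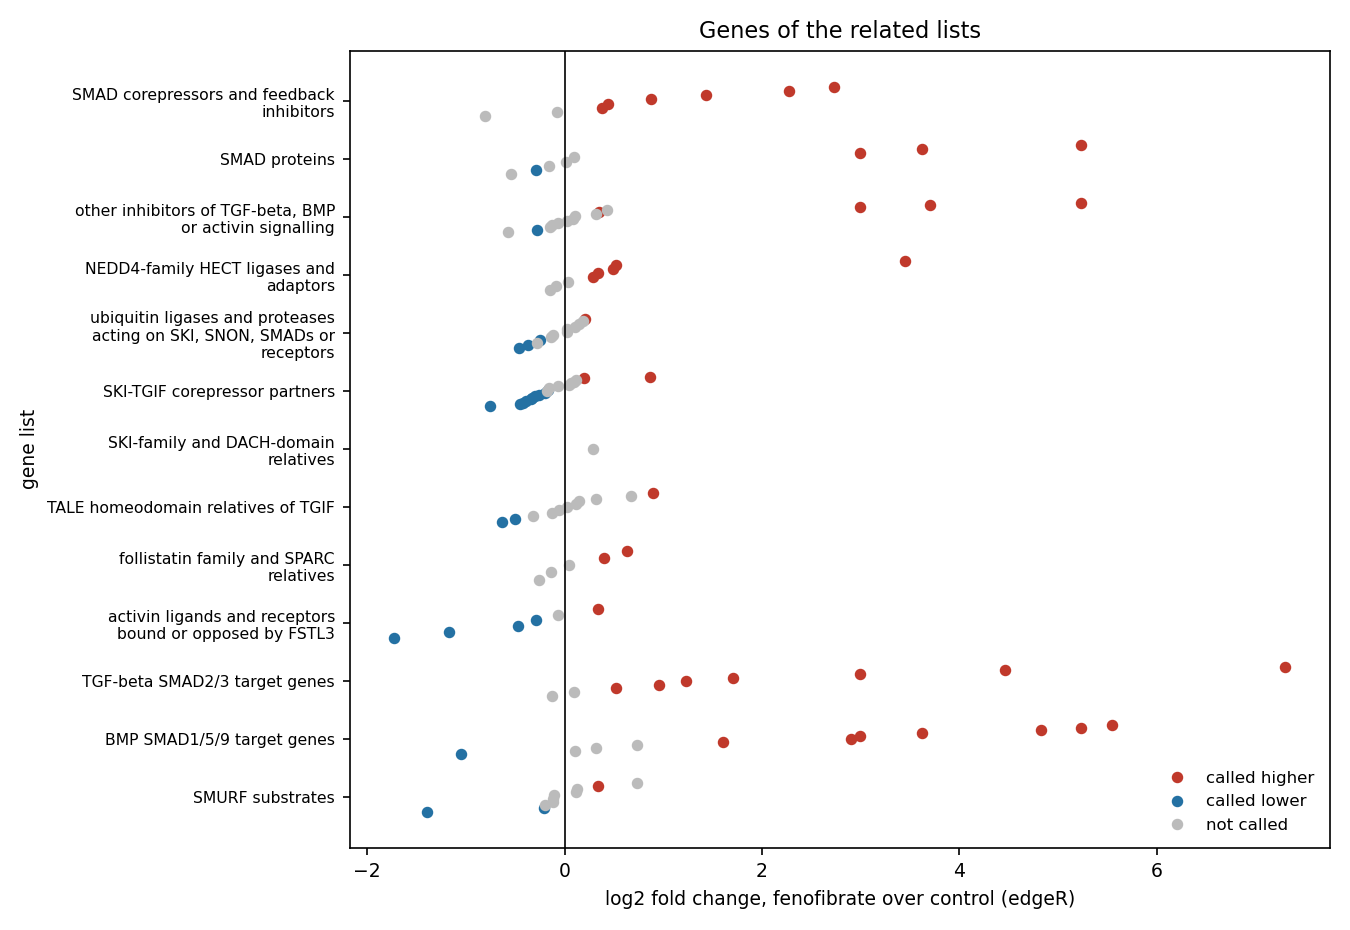
Log2 fold change, fenofibrate over control (edgeR), of the tested genes of each list, with genes called higher in red, called lower in blue and not called in grey. Nog and Inhba are left out because control held 0 and 2 counts of them. Of the 19 corepressor partner genes 10 are called lower, and of the 9 TGF-beta and 11 BMP target genes 7 each are called higher.

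The other inhibitors of the family were tested in 15 of 22 cases, and 5 rose, 1 fell and 9 were not called (median 0.11, the same with Nog at its lower bound). Over the whole set of genes tested, 19.5% were called higher and 19.5% lower. Smad7, the inhibitory SMAD that brings SMURFs to the receptors, rose 7.95-fold (15.1 ± 0.749 to 120 ± 12.3 normalised CPM, mean ± SD of 3 libraries each, adjusted p = 2.34e-06). Smad6, the inhibitory SMAD of the BMP branch, rose 37.5-fold (adjusted p = 3.49e-07) and Vasn 13.1-fold (adjusted p = 3.83e-05). Nog, a secreted BMP antagonist, had 0 counts in control and 106, 122 and 133 with fenofibrate, at least 116.5-fold higher against 3 counts over the control group. Nog passed the low-count filter only through the fenofibrate libraries, so it could join the 5 that rose but not those that fell. Tob2, an antiproliferative gene, rose 1.27-fold (adjusted p = 0.00332). Trim33, which ubiquitinates SMAD4, fell by 0.28 (adjusted p = 0.00921). Bambi, a decoy receptor gene, had a log2 fold change of 0.32 ± 0.20 SE (adjusted p = 0.254).

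Of the 8 SMAD genes themselves 3 rose, 1 fell and 4 were not called. Beside Smad6 and Smad7, Smad9 rose 12.3-fold, while Smad3, a SMAD that SKI and SNON hold in check, fell by 0.29 (97.8 ± 1.70 to 79.9 ± 2.04 normalised CPM, mean ± SD of 3 libraries each, adjusted p = 0.0023). Smad2 and Smad4, at log2 fold changes of -0.15 and 0.01, were not called. Of 18 TGF-beta target genes listed, 9 were tested, and 7 rose and 0 fell. Among them Bhlhe40 rose 3.26-fold (adjusted p = 2.05e-06). Of 16 BMP target genes, 11 were tested, and 7 rose and 1 fell, among them Id1 (28.3-fold) and Id3 (46.8-fold) upward and Zfp423 downward, by 1.05 in log2 units (adjusted p = 0.00167). Skil, at a log2 fold change of 2.73, stood beside Smad7, at 2.99.

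For each of the 8 genes, the genes with the most similar pattern over the 6 libraries were sought among 9782 others with a mean of at least 10 normalised CPM, by Pearson's r of log2 values. Because the 6 libraries form 2 groups, a high value mostly restates the difference between them: 921 genes had an r over 0.95 with Skil and 878 with Ski. Zswim8 and Prkag2 were among the 3 nearest to Skil, and the nearest to Ski were Pld3, Atp6v0e and Pbxip1. Sap30 was the nearest to Fstl3, and Ndfip2 was the nearest to Tgif1 and the next to nearest to Smurf1. Tgif2 and Smurf2 had few like genes, 34 and 28, led by Gm10608 and Ccnb1.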

How the data were processed

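The deposited table of the authors holds raw counts per gene and FPKM for 6 libraries of mRNA-enriched RNA. HISAT2 2.0.4, StringTie 1.3.0 and GRCm39 are named without roles, per the submitters' processing notes. The counting tool, strand setting and filters are not given in the sources used here. Gene coordinates in the table follow GRCm38, since GENCODE M21 holds 99.9% of the gene IDs and places 98.5% of those at identical positions. The deposited FPKM use one gene length that can exceed the merged exon length, so levels per length are also given on merged exons.

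The counts were fitted with edgeR 4.0.16 under R 4.3.3 (filterByExpr, TMM, glmQLFit and glmQLFTest, no covariate), with Benjamini-Hochberg adjustment over the 13629 genes tested and a threshold of 0.05. The SE is the log2 fold change over the square root of F. Alternatives used DESeq2 1.42.0, limma 3.58.1 on log2(FPKM + pseudocount), other scalings and filters, a replicate block and leaving out each library. The fit was checked on simulated data. Protein comparisons were planned and are not analysed here.

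The members and all lists were chosen with earlier results of these data known. The named genes are the 8 members, from each other list at most 4 called genes that rose most and at most 4 that fell most, any SMAD or NEDD4-family gene, and the 3 genes most like each member. Some of these genes are not reported here, and Ncor1, Rnf111, Bambi, Tob2, Dach1 and the genes given by counts alone were picked with their values in view. The depth of each library is a total of 13540038 to 14710856 counts. Counting limits and intervals cover counting error only, since no molecular identifiers are stated.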

Additional observations from a re-analysis of the deposited data

How the results depend on the processing

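All 8 members kept their direction in the 15 alternatives: DESeq2, upper-quartile scaling, library totals, no filter on low counts, 4 limma fits on FPKM, a replicate block and leaving out each of the 6 libraries. The number of members called was 6 in 14 of them and 7 without fenofibrate replicate 3, where Tgif2 was called lower (adjusted p = 0.0463, range over the 15 alternatives 0.0463 to 0.202). Leaving out 1 library at a time moved the log2 fold change of Tgif2 from -1.06 to -0.53 and that of Skil from 2.56 to 2.97. On log2(FPKM + 1) the log2 fold changes of the low genes were smaller, at 0.73 for Pmepa1, 0.78 for Fstl3 and 1.60 for Skil, because a pseudocount shrinks low values. The number of genes called over the whole table was 5326 and ranged from 4248 to 5460 in the alternatives. With the replicate block it was 4540, and the same 6 members were called. Same-numbered libraries correlated in their deviations from the group means at 0.0203, 0.00972 and -0.0227, so no strong shared replicate effect was seen. With 3 libraries per group, these values cannot show whether the samples were paired. Of 51 other genes of the lists that were refitted, 41 stayed on their side of the threshold and kept their direction in every alternative in which they were tested, 8 lost a call in at least 1, 2 (Smad5 and Wwp1) gained one and 0 reversed. Depth limits Pmepa1 most, with 50 counts over the controls.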

Other observations

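Some genes of these lists were counted unevenly within a group, as Tgif2 was. Over 97 tested genes of the lists, 184 pairs of gene and group had a mean of at least 10 normalised CPM, and the highest library exceeded the lowest by a median of 1.10 times. In 11 pairs it did so by 1.5 times or more. The largest was Tgif2 within fenofibrate, at 2.34 times, and Tgif2 within control also stood among the 11, at 1.71 times. Smad5, a SMAD of the BMP branch, was counted 1537, 3802 and 2811 times with fenofibrate against 4001, 4024 and 3789 times in control. Fkbp1a, whose product FKBP12 holds type I receptors inactive, was counted 3323 times in control replicate 1 and 1529 and 1540 times in the other controls, against 1320, 1508 and 1459 times with fenofibrate. These genes were chosen after their values were seen. Among the pairs uneven within fenofibrate, the low library of Tgif2, Smad5 and Smad2 was replicate 1. That of Otub1 and Ppp1r15a was replicate 2, and that of Vasn was replicate 3. Smad2 was counted 268, 317 and 535 times with fenofibrate, so replicate 3 stood apart more than replicate 1 did. A cause was not tested.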
